A study of Mus musculus with 8 samples.

Results

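Complement and coagulation proteins circulate in plasma as inactive precursors, most of them made by hepatocytes, and the RNA of 46 genes for them was examined in 8 mouse livers. The genes were taken from a written list of complement and clotting genes, without the C1r and C1s paralogues, and all 46 were found among the 49585 genes of the count table. They were divided by role into C1q subunits, the classical and lectin pathway, the alternative pathway with C3, the terminal pathway, complement regulators, anaphylatoxin receptors, clotting factors, the contact system, fibrinogen chains, anticoagulants and fibrinolysis.

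Complement is a cascade of proteases that is started by antibody and C1q, by sugar-binding lectins, or by slow turnover of C3 itself. All routes split C3 and then C5, release the anaphylatoxins that draw in leukocytes, and end in a pore built from C5b, C6, C7, C8 and C9. Coagulation is a parallel cascade in which clotting factors lead to thrombin, thrombin turns fibrinogen into fibrin, antithrombin and protein C hold it back, and plasmin dissolves the clot. Most of these proteins come from hepatocytes, but C1q and properdin are known as products of macrophages and other myeloid cells, and factor D as a product of fat.

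Livers came from 3 LP+/+, 2 LPfl/+ and 3 LP245/+ male mice. All were fed HFCD, which is rich in fat and lacks choline, for 3 months from 21 days of age, and no liver on another diet was used here. The labels give LPfl/+ as Alb-CreTG, Trp53fl/+, in which Cre deletes 1 Trp53 allele, and LP245/+ as Alb-CreTG, Trp53wm-R245W/+, in which Cre converts 1 allele from wild-type p53 to p53R245W. By the labels, LP+/+ livers carry no Cre (Alb-Cre0) and keep an unrecombined allele, Trp53fl/+ in replicates 1 and 2 and Trp53wm-R245W/+ in replicate 3, although the study's text describes LP+/+ as Alb-Cre carriers without a Trp53 alteration. Alb-Cre recombines in hepatocytes and cholangiocytes, so the cells in which most of the 46 genes are active carry the alteration, whereas Kupffer cells, the macrophages of the liver, do not.

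Total counts were between 26304526 and 31370714 per liver. For Trp53, LP+/+ replicates 1, 2 and 3 had 234, 269 and 215 counts, LPfl/+ replicates 1 and 2 had 125 and 176, and LP245/+ replicates 1, 2 and 3 had 306, 291 and 190, so both LPfl/+ livers were below every LP+/+ liver. All 8 hepatocyte markers that could be matched were detected in every liver, and albumin had normalized counts between 2150494 and 3321163. Library numbers fell into 2 series, a first with the LP245/+ livers and LP+/+ replicates 2 and 3, and a second with LP+/+ replicate 1 and both LPfl/+ livers. No series held both LP245/+ and LPfl/+ livers, so series and genotype cannot be told apart among these livers themselves. An adjustment for series in that comparison rests on the LP+/+ livers, of which only replicate 1 is in the second series. Whole livers were measured, in which fewer cells of a type and less RNA per cell cannot be told apart.

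Fibrinogen was the most abundant product of the list, and its 3 genes are neighbours on chromosome 3, Fgg at 83007724 to 83015049, Fga at 83026076 to 83033627 and Fgb at 83040141 to 83049863 (GRCm38). The gaps between them are 11026 and 6513 bases, and Fgb lies on the minus strand. The stretches just upstream of their starts are shown because their RNA levels moved together from liver to liver, and those of C6 and C8b because these 2 terminal pathway genes varied most between livers among the abundant members. The sequences are from RefSeq (GRCm38.p6), on the strand of each gene, and capitals mark the letters TTCNNNGAA, the pattern bound by STAT factors. They span chr3:83025903-83026075 for Fga, chr3:83049864-83050113 on the minus strand for Fgb, chr3:83007474-83007723 for Fgg, chr15:4726960-4727174 for C6 and chr4:104766067-104766316 for C8b.
Fga: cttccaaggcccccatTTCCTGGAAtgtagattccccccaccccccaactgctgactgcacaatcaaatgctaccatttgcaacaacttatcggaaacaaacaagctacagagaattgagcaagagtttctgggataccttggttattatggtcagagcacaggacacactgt
Fgb: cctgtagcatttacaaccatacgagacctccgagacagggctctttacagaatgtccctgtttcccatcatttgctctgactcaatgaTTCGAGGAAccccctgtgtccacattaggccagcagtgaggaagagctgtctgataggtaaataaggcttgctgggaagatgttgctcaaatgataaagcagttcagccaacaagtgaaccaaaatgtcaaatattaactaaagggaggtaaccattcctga
Fgg: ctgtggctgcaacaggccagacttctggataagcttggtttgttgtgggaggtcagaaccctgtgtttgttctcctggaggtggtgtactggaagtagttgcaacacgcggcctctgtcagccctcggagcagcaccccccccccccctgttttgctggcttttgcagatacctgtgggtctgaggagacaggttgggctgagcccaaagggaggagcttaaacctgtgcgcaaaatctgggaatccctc
C6: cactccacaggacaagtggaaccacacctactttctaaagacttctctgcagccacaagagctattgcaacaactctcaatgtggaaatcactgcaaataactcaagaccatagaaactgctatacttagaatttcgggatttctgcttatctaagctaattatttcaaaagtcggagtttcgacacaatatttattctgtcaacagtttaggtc
C8b: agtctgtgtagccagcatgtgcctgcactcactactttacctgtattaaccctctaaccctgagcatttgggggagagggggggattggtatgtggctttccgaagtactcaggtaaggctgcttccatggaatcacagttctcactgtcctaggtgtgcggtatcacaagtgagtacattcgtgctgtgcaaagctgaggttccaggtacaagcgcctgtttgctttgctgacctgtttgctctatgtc

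RefSeq windows of 300 bases, 250 before and 50 after the start, were matched for 35 of the 46 genes and searched on both strands. TTCNNNGAA was present for 8 of the 35 genes (C7, C8a, F9, Fga, Fgb, Masp2, Pros1 and Vtn), against 8.30% of 32851 windows of all genes. For each pattern a gene was counted if any of its windows held it, whereas the share over all genes is of single windows. The units are thus unlike, and a gene with several windows had more chances to be counted. GTTAATNAT, letters of the site of the hepatocyte factor HNF1, was present in 4 (C4bp, F13b, Fga and Hc), against 0.801% of all windows, and in Fga it lay outside the stretch shown. TGACCTTTG, letters of an HNF4 site, was found in F7 and F9, with 0.478% of all windows holding it. TTGCGCAA, a C/EBP site, was found in 0 of the 35, with 0.183% of all windows holding it. The windows of Fgg, C6 and C8b held none of the 4 patterns, which says only that these letters are not in them. No window was matched for C1qa, C2, C4b, Cfb, Cfi, Clu, Kng1, Masp1, Plg, Proc and Serping1.

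Levels are given as normalized read counts (counts divided by size factors), and between genes as normalized read counts per kb of exon. Fga, Fgg and Fgb, the chains of fibrinogen, led with means of 54488, 46586 and 39755 per kb over 8 livers. They were followed by C3, on which all complement routes converge, at 36444, and by Vtn (vitronectin, which binds the terminal complex) at 30793. Fga lay above Fgg in every liver by a per-length ratio of 1.13 to 1.23, and Fgb lay below Fgg by a ratio of 0.802 to 0.910, whereas the order of Fgb and C3 differed between genotypes. At the other end were C5ar1 at 9.37, C7 at 19.0, Cfd at 22.0, C3ar1 at 24.7 and Cfb at 25.8 per kb. The level of Cfb may be set too low, since 79.5% of its exon length is shared on the same strand with Gm20547. STAR does not count reads that overlap both genes. The 46 genes took between 3.98% and 4.80% of all counts in a liver.

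**Figure D1:**
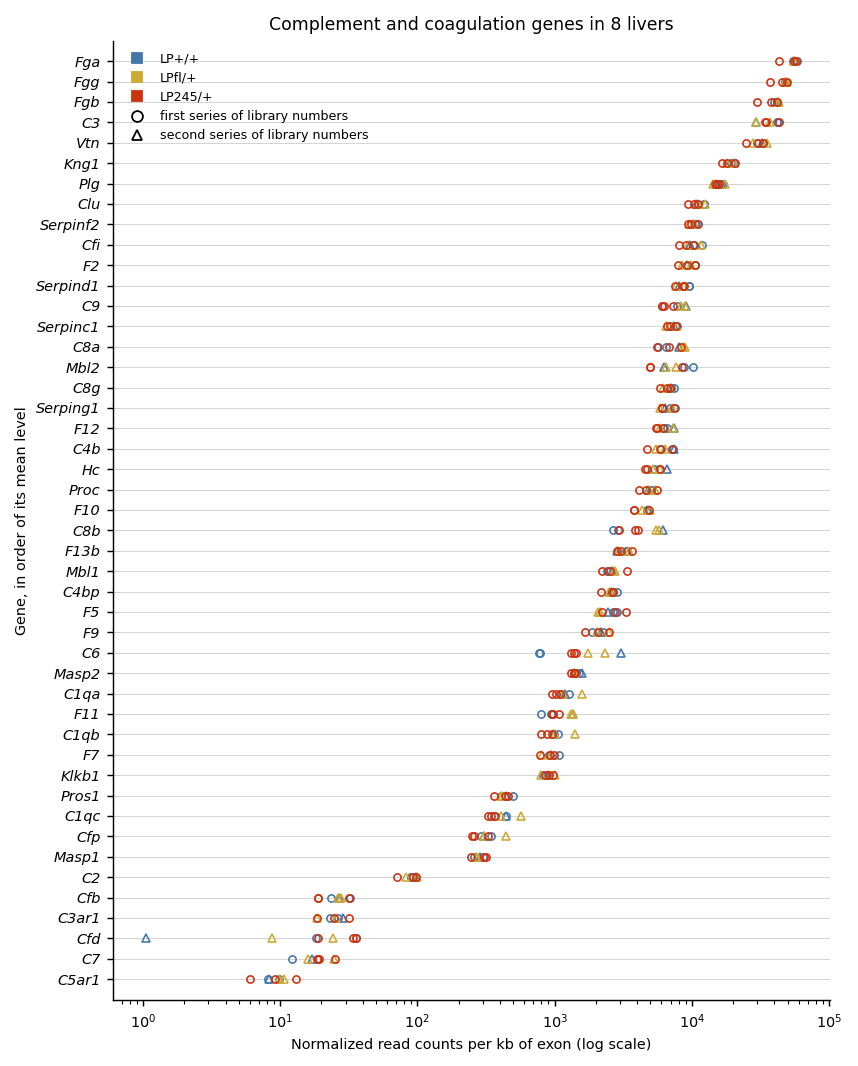
Normalized read counts per kb of exon (horizontal, log scale) of the 46 genes in order of mean level, with 1 point per liver, colored by genotype and shaped by the series of library numbers. Means run from 9.37 for C5ar1 to 54488 for Fga, and the livers of most genes lie close together, with Cfd and C6 spread most widely.

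The 46 genes varied little between livers of 1 genotype. Their median residual SD was 0.17 on the log2 scale, against 0.22 over all 16496 genes tested, and it was below 0.25 in 36 of them. Masp2, the protease of the lectin pathway, had the smallest at 0.06. Cfd had the largest at 1.27, followed by C6 at 0.73, C8b at 0.44 and Mbl2 at 0.37. LP245/+ replicate 1 had the lowest value of the 8 livers for 24 of the 46 genes, against 14.1% of all genes, and its median log2 difference from the mean of 8 livers was -0.23. In the other livers this median lay between -0.05 and 0.10, and the share of counts held by the 46 genes was 3.98% in LP245/+ replicate 1 and 4.23% to 4.80% elsewhere.

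**Figure D2:**
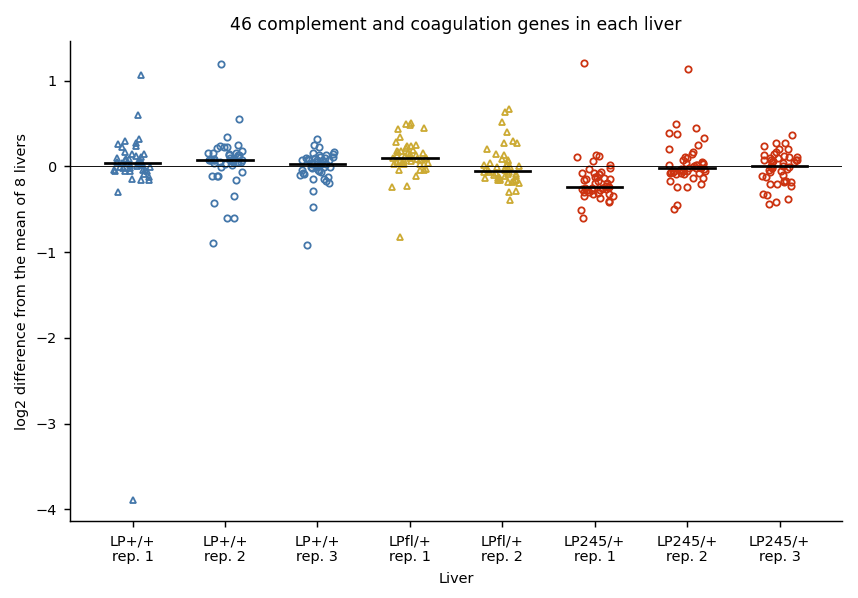
Difference of each of the 46 genes from its mean over 8 livers (vertical, log2 scale), with 1 point per gene, the livers side by side and the median of each liver as a black bar. The median is -0.23 in LP245/+ replicate 1 and between -0.05 and 0.10 in the other 7 livers, and the lowest point, in LP+/+ replicate 1, is Cfd.

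Each pair of genotypes was compared with edgeR's quasi-likelihood test over all 16496 genes, and the 46 genes all passed its filter on low counts. None of the 46 passed the cutoff of the study, a log2 fold change of 1 or more in either direction with an adjusted p no higher than 0.05, in any comparison, and DESeq2 also called 0 of them. For LP245/+ compared with LP+/+ the cutoff was passed by 0.00606% of all genes and the lowest adjusted p of the 46 was 0.831. For LPfl/+ compared with LP+/+ it was passed by 0% of all genes and the lowest adjusted p of the 46 was 0.748, and for LP245/+ compared with LPfl/+ these were 0% and 0.424. The p-values set each difference against the spread between livers within genotypes, which have 2 or 3 livers each. That spread was estimated per gene over all genotypes together and drawn toward that of other genes.

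By the labels, LP245/+ livers differ from LP+/+ in the Cre transgene as well as in the converted allele. They had lower values than LP+/+ for 37 of the 46 genes, where 49.4% of all genes were lower. The shifts were small, with a median log2 fold change of -0.11 against 0.00 over all genes, and 0 of the 46 had an unadjusted p below 0.05, against 5.93% of all genes (2.38% lower and 3.55% higher). Ranges of the 2 genotypes did not overlap for 5 of the 46 (11.8% of all genes), all lower in LP245/+ (5.79% of all genes, with 6.03% higher). They were F12, C1qa, C1qb, Masp2 and C8g, with log2 fold changes of -0.23, -0.21, -0.19, -0.12 and -0.14. Without LP245/+ replicate 1, 33 of the 46 were lower and the median was -0.05, but the share of all genes was not computed for that fit. The 95% interval of the log2 fold change lay within 1 of zero in either direction for 44 of the 46 genes (73.7% of all genes), the exceptions being C6 and Cfd, and within 0.5 for 31 (43.6% of all genes).

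LPfl/+ livers differ from LP+/+ in the deleted allele and, by the labels, also in the Cre transgene. They had lower values than LP+/+ for 26 of the 46 genes (50.2% of all genes), with a median log2 fold change of -0.01. As above, 0 of the 46 had an unadjusted p below 0.05, against 6.89% of all genes (2.67% lower and 4.22% higher). Ranges did not overlap for 5 of the 46 (25.1% of all genes). F5, C8g and Masp2 were lower in LPfl/+ (13.2% of all genes were lower in this way), and C8a and Mbl1 were higher (11.9%). With scaling by library totals alone, 17 of the 46 were lower and the median was 0.05, but the share of all genes was not computed for that scaling. The 95% intervals lay within 1 of zero for 42 genes (68.9% of all genes).

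LP245/+ compared with LPfl/+ gave 6 of the 46 genes with an unadjusted p below 0.05, against 8.51% of all genes. C1qa, C1qb, C1qc, Cfp and C9 were lower in LP245/+ (4.44% of all genes were lower at this p) and F5 was higher (4.07%), and all 6 failed the adjustment over all genes. The median log2 fold change of the 46 was -0.07, with 33 lower (49.2% of all genes). Without LP245/+ replicate 1 the number lower was 23, but the share of all genes was not computed for that fit. Ranges did not overlap for 11 of the 46 (25.4% of all genes), 10 of them lower in LP245/+ (13.3%) and F5 higher (12.1%). Without LPfl/+ replicate 1, which leaves 1 LPfl/+ liver that is assumed to vary like those of the other genotypes, 0 of the 46 had an unadjusted p below 0.05, and without LP245/+ replicate 1, 3 had one, the C1q genes.

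**Figure D3:**
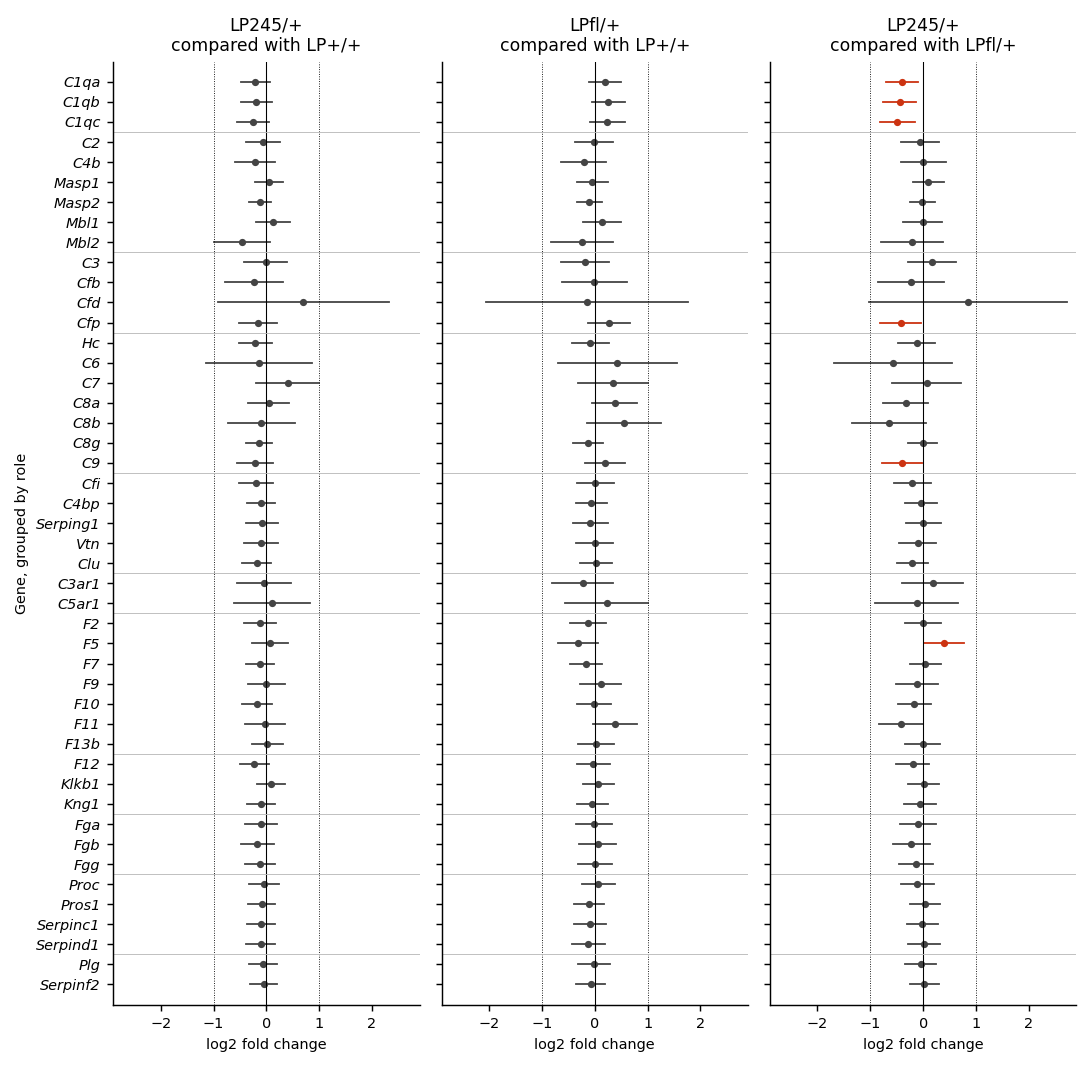
Log2 fold changes of the 46 genes (points) with 95% intervals (lines) in the 3 comparisons, grouped by role, with red for an unadjusted p below 0.05 and dotted lines at 1 and -1. Red occurs in LP245/+ compared with LPfl/+ alone, for C1qa, C1qb, C1qc, Cfp and C9 on the lower side and F5 on the higher side, and the widest intervals are those of Cfd and C6.

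C1q, the subunit complex that recognizes antibody on a target, is encoded by C1qa, C1qb and C1qc, which lie together on chromosome 4 between 136880129 and 136898803 on the minus strand (GRCm38). For C1qa, LP+/+ replicates 1, 2 and 3 had 1249, 1322 and 1156 normalized counts, LPfl/+ replicates 1 and 2 had 1636 and 1198, and LP245/+ replicates 1, 2 and 3 had 995, 1136 and 1072, an order of livers kept below. The 3 LP245/+ livers were below all others, and LPfl/+ replicate 1 was above all others. C1qb had 1074, 1155 and 1082 in LP+/+ livers, 1526 and 1097 in LPfl/+ livers, and 869, 1049 and 965 in LP245/+ livers. C1qc had 857, 849 and 700 in LP+/+ livers, 1091 and 788 in LPfl/+ livers, and 632, 708 and 664 in LP245/+ livers. The pattern of C1qa recurred in C1qb, and in C1qc LP245/+ overlapped LP+/+ through LP+/+ replicate 3.

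Compared with LPfl/+, C1qc had a log2 fold change of -0.49 in LP245/+ livers (SE 0.15, edgeR adjusted p = 0.424, unadjusted p = 0.00848). C1qb had -0.45 (SE 0.14, edgeR adjusted p = 0.440) and C1qa -0.41 (SE 0.14, edgeR adjusted p = 0.468). Compared with LP+/+ the same genes had values of -0.25, -0.19 and -0.21 in LP245/+ and of 0.24, 0.26 and 0.20 in LPfl/+, none with an unadjusted p below 0.05. Without LPfl/+ replicate 1 the log2 fold changes of LP245/+ compared with LPfl/+ were -0.23 for C1qc, -0.19 for C1qb and -0.16 for C1qa. The genes kept nearly fixed proportions, with a count ratio of C1qb to C1qa between 0.860 and 0.937 and of C1qc to C1qa between 0.606 and 0.686 over 8 livers.

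All 10 markers of Kupffer cells and macrophages were detected in every liver. Their summed normalized counts were 11344, 13692 and 12279 in LP+/+ livers, 14443 and 11059 in LPfl/+ livers, and 10118, 12121 and 10955 in LP245/+ livers, highest in LPfl/+ replicate 1 and lowest in LP245/+ replicate 1, as for the sum of the C1q genes. The livers between did not keep that order, since LP245/+ replicate 2 was above LP+/+ replicate 1 in the markers and below it in C1q. Single markers also differed, and Lyz2 had its lowest value in LPfl/+ replicate 1. Clec4f, the lectin that defines Kupffer cells, had 2819, 3262 and 2778 in LP+/+ livers, 3805 and 2809 in LPfl/+ livers, and 2382, 2508 and 2960 in LP245/+ livers. In LP245/+ compared with LPfl/+, 7 of the 10 were lower (49.2% of all genes), 1 of them, Cd68 at -0.38, with an unadjusted p below 0.05 (8.51% of all genes), and their median was -0.23. Against LP+/+, 9 of the 10 were lower in LP245/+ (49.4% of all genes), 1 of them, Cd163 at -0.43, with an unadjusted p below 0.05 (5.93% of all genes), and the median was -0.16. Their part in the C1q values was not tested.

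**Figure D4:**
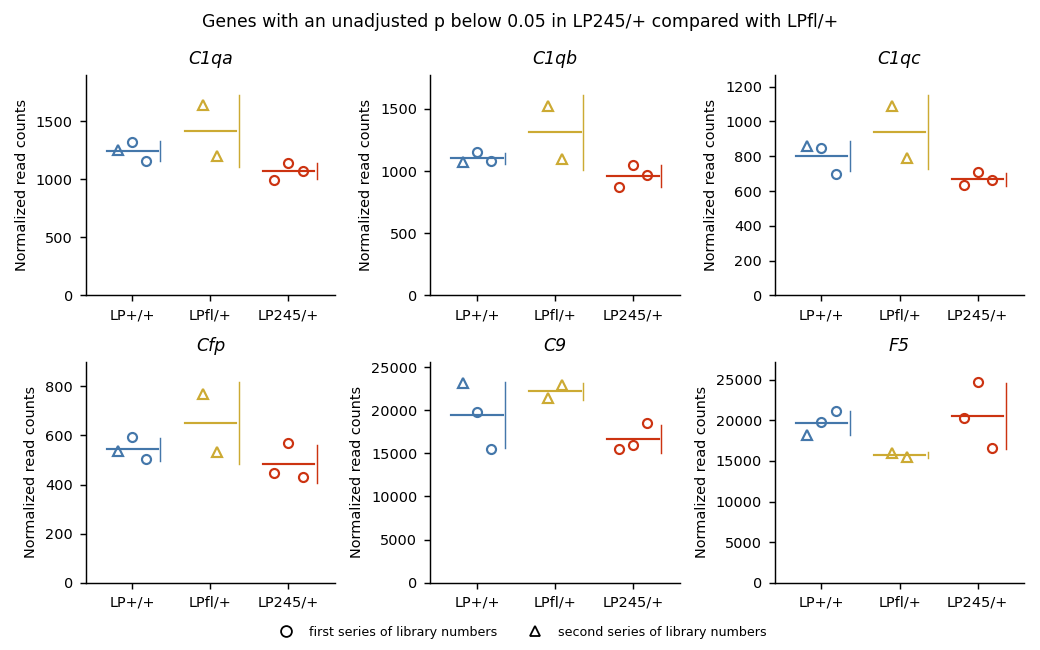
Normalized read counts of the 6 genes with an unadjusted p below 0.05 in LP245/+ compared with LPfl/+, with 1 point per liver, shaped by the series of library numbers, horizontal bars for means and vertical bars for 1 SD on either side (n = 3, 2 and 3). LPfl/+ replicate 1 is the highest point for C1qa (1636), C1qb (1526), C1qc (1091) and Cfp (769), whereas both LPfl/+ livers are high for C9 and low for F5.

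In the classical and lectin pathway, 0 of 6 genes had an unadjusted p below 0.05 in LP245/+ or LPfl/+ compared with LP+/+ (5.93% and 6.89% of all genes) or in LP245/+ compared with LPfl/+ (8.51%). Mbl2 encodes a mannose-binding lectin and had the highest level per length of these genes. It had 6856, 11162 and 9527 normalized counts in LP+/+ livers, 8385 and 7043 in LPfl/+ livers, and 5366, 5391 and 9192 in LP245/+ livers. LP245/+ replicates 1 and 2 were the lowest livers, and replicate 3 lay within LP+/+. Its log2 fold change from LP+/+ to LP245/+ was -0.46 (SE 0.24) and had the smallest p of the 46 in that comparison (edgeR adjusted p = 0.831), and within the series of library numbers that holds 3 LP245/+ and 2 LP+/+ livers the log2 ratio of means was -0.64. Mbl1, the other mannose-binding lectin, had between 3472 and 5317, with log2 fold changes of 0.12 and 0.13 against LP+/+.

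C4b, the complement C4 that both routes split, had between 26638 and 42471 normalized counts, with a log2 fold change of -0.21 in either altered genotype compared with LP+/+. Its copy C4a is near identical, so reads of the pair may have been split between them. The lectin-associated proteases Masp1 and Masp2 had between 2433 and 3104 and between 4350 and 5222. Masp2 shares 54.9% of its exon length with Tardbp on the opposite strand. C2, the protease that joins C4b, had between 275 and 384. These counts may be too low, since 42.8% of its exon length is shared on the same strand with Gm20547, a gene with 0 counts.

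C3 had 150494, 215443 and 217491 normalized counts in LP+/+ livers, 191127 and 150827 in LPfl/+ livers, and 174886, 221448 and 177728 in LP245/+ livers. The genotypes overlapped throughout, and the log2 fold changes were -0.01 in LP245/+ and -0.18 in LPfl/+ compared with LP+/+ (SE 0.18 and 0.20). C3 took between 0.547% and 0.774% of all counts in a liver. LP+/+ replicate 1 differed from the mean of LP+/+ replicates 2 and 3 by -0.52 on the log2 scale.

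Cfp encodes properdin, which stabilizes the C3 convertase of the alternative pathway. It had 535, 596 and 503 normalized counts in LP+/+ livers, 769 and 532 in LPfl/+ livers, and 447, 571 and 431 in LP245/+ livers, with LPfl/+ replicate 1 the highest liver and overlap among all genotypes. Its log2 fold change in LP245/+ compared with LPfl/+ was -0.43 (SE 0.18, edgeR adjusted p = 0.551), and -0.14 without LPfl/+ replicate 1. Cfb, the protease of the same convertase, had between 52.95 and 91.25, but 79.5% of its exon length is shared with Gm20547, so its counts are uncertain and may be too low.

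Cfd, factor D, which cuts factor B, was close to the limit of detection. It had 1, 34 and 18 counts in LP+/+ livers, 8 and 22 in LPfl/+ livers, and 32, 31 and 17 in LP245/+ livers, where 3 counts were taken as the floor. LP+/+ replicate 1 was under the floor and the genotypes overlapped. Its log2 fold change of LP245/+ against LP+/+ was 0.70, with a 95% interval from -0.92 to 2.32. Of 6 adipocyte genes, Adipoq, Plin1, Lep and Retn had at most 3 counts in every liver, whereas Cidec had between 77.3 and 194 and Fabp4 between 165 and 256 normalized counts.

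The terminal pathway held C6 and C8b, whose spread between livers was exceeded by that of Cfd alone among the 46, as well as C8g, with a residual SD of 0.10. Hc, which encodes C5, had 41067, 36154 and 33209 normalized counts in LP+/+ livers, 36568 and 32407 in LPfl/+ livers, and 28727, 36575 and 29653 in LP245/+ livers. The genotypes overlapped and its log2 fold changes compared with LP+/+ were -0.21 in LP245/+ and -0.09 in LPfl/+. C9, which polymerizes into the wall of the pore, had the highest mean level per length of the pathway over 8 livers, 7473 against 7311 for C8a, although C8a was higher in the means of LPfl/+ and LP245/+. It had 23093, 19805 and 15501 in LP+/+ livers, 21456 and 22888 in LPfl/+ livers, and 15550, 15989 and 18523 in LP245/+ livers.

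For C9, LP245/+ lay below both LPfl/+ livers and overlapped LP+/+. Its log2 fold change from LPfl/+ to LP245/+ was -0.41 (SE 0.17, edgeR adjusted p = 0.551), and it was -0.02 with a covariate for the library series. Within each series, C9 differed from LP+/+ by -0.08 in LP245/+ and by -0.06 in LPfl/+ on the log2 scale.

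C6, on chromosome 15 at 4727175 to 4814967 (GRCm38), and C8b, on chromosome 4 at 104766317 to 104804548, encode parts of the pore that join C5b before C9, and both were singled out after their values were seen. C6 had 10778, 2785 and 2743 normalized counts in LP+/+ livers, 6282 and 8237 in LPfl/+ livers, and 4704, 4897 and 5091 in LP245/+ livers. C8b had 15612, 6808 and 7424 in LP+/+ livers, 14072 and 14799 in LPfl/+ livers, and 9808, 7529 and 10366 in LP245/+ livers. LP+/+ replicate 1 was the highest of the 8 livers for both, and with the LPfl/+ livers, of the same series of library numbers, it lay above the other 5.

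Replicate 1 exceeded the mean of LP+/+ replicates 2 and 3 by 1.96 for C6 and 1.14 for C8b on the log2 scale. For F11 this difference was 0.64, for C8a 0.42 and for C9 0.40. Among the 46, 6 differed by more than 0.5 in either direction (20.9% of all genes) and 3 by more than 1 (6.74% of all genes), the third being Cfd with -3.11.

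Compared with LP+/+, C6 had values of -0.14 in LP245/+ (log2 fold change, SE 0.45) and of 0.43 in LPfl/+ (SE 0.50), with edgeR adjusted p of 0.977 and 0.881. Within a series the signs were the opposite, 0.83 for LP245/+ and -0.57 for LPfl/+. Without LP+/+ replicate 1, C6 and C8b passed the cutoff in LPfl/+ compared with LP+/+, with log2 fold changes of 1.40 (edgeR adjusted p = 0.00397) and 1.03 (edgeR adjusted p = 0.0321), where 0.362% of all genes passed it. That comparison then set LP+/+ livers of 1 series against LPfl/+ livers of the other, so genotype and series cannot be told apart in it.

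C8a lies 11130 bases from C8b and encodes the chain that enters the membrane. It had 29552, 20640 and 23597 normalized counts in LP+/+ livers, 31264 and 32171 in LPfl/+ livers, and 20286, 24951 and 30195 in LP245/+ livers, with both LPfl/+ livers above the other 6. The count ratio of C8a to C8b ran from 1.89 in LP+/+ replicate 1 to 3.31 in LP245/+ replicate 2, a wider range than in the fibrinogen cluster described below. C8g, the third chain of C8, had between 8731 and 11118.

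C7, made largely outside hepatocytes, had 45.4, 32.7 and 50.8 normalized counts in LP+/+ livers, 42.6 and 65.6 in LPfl/+ livers, and 51.7, 67.7 and 49.9 in LP245/+ livers. The genotypes overlapped, and the log2 fold change of LP245/+ against LP+/+ was 0.40 (SE 0.26). Its 95% interval ran from -0.19 to 0.996.

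**Figure D5:**
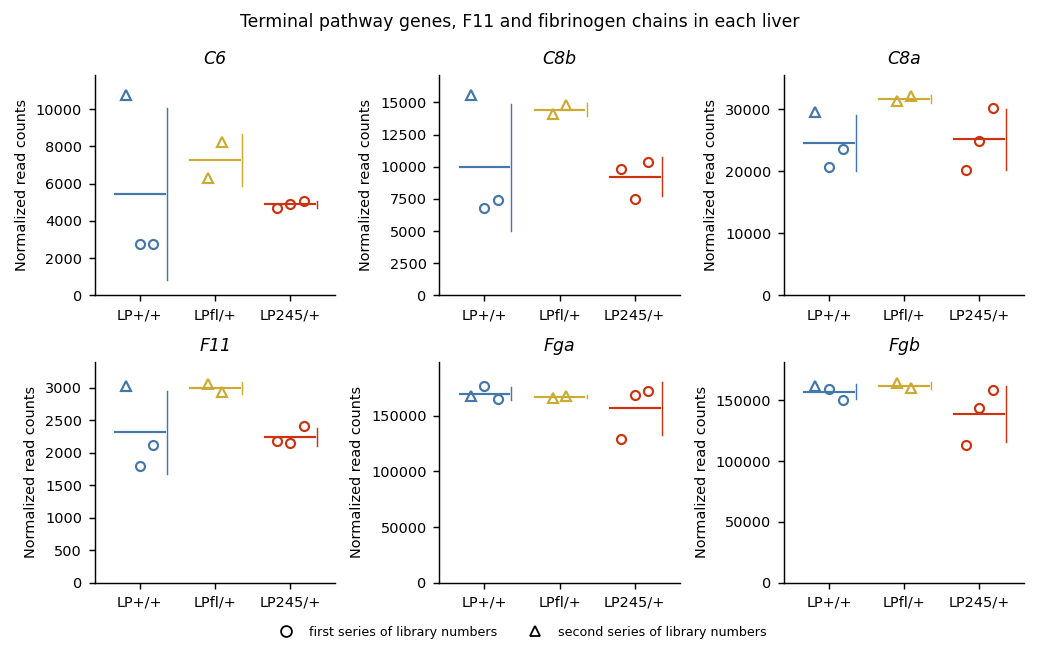
Normalized read counts of 3 terminal pathway genes, F11 and 2 fibrinogen chains, with 1 point per liver, shaped by the series of library numbers, horizontal bars for means and vertical bars for 1 SD on either side (n = 3, 2 and 3). For C6, C8b and F11 the triangles of the second series, 1 LP+/+ and 2 LPfl/+ livers, lie above the circles of the first, whereas for Fga and Fgb the 1 low point is LP245/+ replicate 1.

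Among complement regulators, 0 of 5 had an unadjusted p below 0.05 in any comparison (5.93%, 6.89% and 8.51% of all genes, in the order used above). All 5 had lower values in LP245/+ than in LP+/+ (49.4% of all genes), with log2 fold changes from -0.20 to -0.08. Vtn had the highest level per length of them. It had 66222, 66548 and 60429 normalized counts in LP+/+ livers, 71136 and 56872 in LPfl/+ livers, and 50730, 61460 and 66678 in LP245/+ livers, with overlap of all genotypes. Clu (clusterin), Cfi (factor I, which inactivates C3b), C4bp (the C4b-binding protein) and Serping1 (the inhibitor of C1) had between 32185 and 43084, 17916 and 26221, 14558 and 19267, and 13682 and 17512. Clu in LP245/+ lay below both LPfl/+ livers, at a log2 fold change of -0.21.

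The anaphylatoxin receptors, which sit on myeloid cells, were among the 5 members with the lowest levels per length. C3ar1 had 124, 99.9 and 113 normalized counts in LP+/+ livers, 110 and 79.8 in LPfl/+ livers, and 105, 136 and 80.4 in LP245/+ livers, and C5ar1 had between 15.5 and 33.3. Neither had an unadjusted p below 0.05, and the 95% interval for C5ar1 in LPfl/+ compared with LP+/+ ran from -0.56 to 1.02.

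Thrombin and the clotting factors had residual SDs from 0.15 for F10 to 0.25 for F11. F2 encodes prothrombin and had 42359, 48707 and 48111 normalized counts in LP+/+ livers, 45570 and 39232 in LPfl/+ livers, and 36550, 42261 and 48278 in LP245/+ livers. The genotypes overlapped, and the log2 fold change was -0.12 in each altered genotype compared with LP+/+ (SE 0.14 in LP245/+ and 0.15 in LPfl/+). F5, the cofactor with which factor X makes thrombin, had 18187, 19786 and 21174 in LP+/+ livers, 15943 and 15432 in LPfl/+ livers, and 20342, 24742 and 16590 in LP245/+ livers. Both LPfl/+ livers were below the other 6.

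The log2 fold change of F5 was 0.39 in LP245/+ compared with LPfl/+ (SE 0.17, edgeR adjusted p = 0.576) and -0.32 in LPfl/+ compared with LP+/+ (SE 0.17). Within the series that holds both LPfl/+ livers and LP+/+ replicate 1, LPfl/+ differed from LP+/+ by -0.21 on the log2 scale. F11, which amplifies the intrinsic route, had between 1796 and 3067, and its values of 0.38 in LPfl/+ compared with LP+/+ (SE 0.19) and -0.01 within that series differed in size. F7, F9, F10 and F13b had ranges of 1448 to 2017, 4562 to 6822, 10315 to 13620 and 7229 to 9334, and log2 fold changes between -0.18 and 0.11 in the 3 comparisons.

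In the contact system, which starts clotting on foreign surfaces and releases bradykinin, Kng1 had the highest level per length. Kng1 encodes kininogen, the source of bradykinin, and had 65453, 63245 and 65512 normalized counts in LP+/+ livers, 66120 and 58543 in LPfl/+ livers, and 54240, 58705 and 66891 in LP245/+ livers. The genotypes overlapped. Kng1 has a close copy, Kng2, between which reads may have been split. F12, the factor that starts the system, had between 10758 and 14558, with the 3 LP245/+ livers below the 3 LP+/+ livers (log2 fold change -0.23, SE 0.13). Klkb1, prekallikrein, had between 4163 and 5304 and shares 43.2% of its exon length with Gm45753 on the same strand, so its counts may also be too low.

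Fibrinogen RNA was lowest in 1 liver. Fga had 167815, 176451 and 164871 normalized counts in LP+/+ livers, 166103 and 167858 in LPfl/+ livers, and 128943, 167981 and 172046 in LP245/+ livers. Fgb had 162013, 159229 and 150088 in LP+/+ livers, 164275 and 160080 in LPfl/+ livers, and 113497, 144050 and 158504 in LP245/+ livers. Fgg had 100056, 100692 and 101855 in LP+/+ livers, 99169 and 102537 in LPfl/+ livers, and 77767, 95159 and 102803 in LP245/+ livers. LP245/+ replicate 1 was the lowest liver for each chain, and the other 7 livers lay close together.

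The chains kept their proportions, with a count ratio of Fga to Fgg between 1.62 and 1.77 and of Fgb to Fgg between 1.46 and 1.66 over 8 livers. Together they took 1.18% of all counts in LP245/+ replicate 1 and between 1.41% and 1.62% in the other livers. The log2 fold changes in LP245/+ compared with LP+/+ were -0.11 for Fga, -0.17 for Fgb and -0.12 for Fgg (SE 0.13 to 0.14), and those in LPfl/+ were -0.01, 0.05 and 0.01. Of the stretches shown above, those of Fga and Fgb hold the STAT pattern and that of Fgg does not.

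Anticoagulants and fibrinolytic genes were among the steadiest. Serpind1, heparin cofactor II, had the highest level per length of the anticoagulants, with 17610, 20889 and 20772 normalized counts in LP+/+ livers, 19309 and 16761 in LPfl/+ livers, and 16393, 18916 and 19256 in LP245/+ livers. Serpinc1 (antithrombin), Proc (protein C) and Pros1 (protein S) had ranges of 55628 to 67149, 10142 to 13724 and 1486 to 2037. Plg encodes plasminogen and had 56102, 60754 and 62361 in LP+/+ livers, 64744 and 52713 in LPfl/+ livers, and 54812, 58705 and 56608 in LP245/+ livers. Serpinf2, the inhibitor of plasmin, had between 21918 and 25817. Genotypes overlapped for each of these 6 genes, and their log2 fold changes lay between -0.12 and 0.07 in the 3 comparisons.

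The other 49 genes of the pathways, among them cell-surface regulators, cofactors of the vessel wall and factors made elsewhere, were treated as a separate list, of which 46 could be tested. In LP245/+ compared with LP+/+, 1 had an unadjusted p below 0.05 (5.93% of all genes), Fgl1, a fibrinogen-like protein of hepatocytes, at a log2 fold change of -0.73. In LPfl/+ compared with LP+/+, 5 had one (6.89% of all genes), Thbd at -1.25, C5ar2 at -0.74, Vwf at -0.65, C1qbp at -0.29 and Cr2 at 0.64. In LP245/+ compared with LPfl/+, 7 had one (8.51% of all genes), and the 5 with the smallest p were Thbd at 1.08, Vwf at 0.56, Cd55 at 0.32, C1qbp at 0.26 and Fgl1 at -0.82. None passed the cutoff, and the lowest edgeR adjusted p was 0.362, for Thbd.

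Thbd and Vwf encode thrombomodulin and von Willebrand factor, both products of endothelium. Thbd had 164, 306 and 307 normalized counts in LP+/+ livers, 104 and 112 in LPfl/+ livers, and 239, 263 and 185 in LP245/+ livers, so that both LPfl/+ livers were below the other 6 and LP+/+ replicate 1, of the same series, was the next lowest. The summed counts of 8 endothelial markers were 19212, 20792 and 22601 in LP+/+ livers, 14333 and 18994 in LPfl/+ livers, and 22511, 21243 and 19482 in LP245/+ livers, also lowest in the LPfl/+ livers. Their part in these values was not tested.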

How the data were processed

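The authors made stranded total RNA libraries from flash-frozen liver, aligned paired-end reads to GRCm38 with STAR and deposited read counts per GENCODE gene, without normalization. The GENCODE release and the counted strand are not given in the sources used here, so counts of genes that overlap others are uncertain. STAR leaves out reads that overlap more than 1 gene. All 8 columns were matched to a label and 0 were left unmatched. Symbols, positions and exon lengths were taken from GENCODE M21 (GRCm38), which gave a symbol for 49326 of 49585 identifiers. The total was 26304526 to 31370714 counts per liver, and 3 counts were taken as the floor. Shares and floors carry counting error only.

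Genotypes were compared with the quasi-likelihood F test of edgeR 4.0.16 (TMM scaling and filterByExpr by genotype) under R 4.3.3, with 8 livers in 1 fit and Benjamini-Hochberg adjustment over 16496 genes. Counts were normalized with the size factors of DESeq2 1.42.0, residual SDs were taken on edgeR's log2 CPM with a prior count of 2, and no p-value was computed over the gene list. On simulated counts for LP245/+ compared with LP+/+, 200 of 200 changed genes among 16315 were recovered, with 1 false call. This recovery holds only for changes of the size and spread set in the simulation. Power for shifts as small as those of the listed genes, or for the most variable of them, was not tested. The absence of calls among the listed genes therefore does not exclude small shifts. Figures were drawn with matplotlib 3.10.9.

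Members and gene lists were chosen with earlier results of these data known. Values in every liver are given for members with an unadjusted p below 0.05, for C1qa, C1qb, C1qc, C3, Hc, C9, Cfd, C7, F2, Fga, Fgb and Fgg, and for the member with the highest level per length in each role. C6, C8b and C8a are shown beyond this rule, and were chosen after their values were seen. Of the other pathway genes, at most 5 per comparison are named, by smallest p. Alternatives were DESeq2, other scalings and filters, only the 2 genotypes compared, an adjusted p without a fold change, a block for replicate number, a covariate for the series of libraries, and each liver left out in turn.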

Additional observations from a re-analysis of the deposited data

How the results depend on the processing

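Under each alternative, 0 of the 46 genes passed the cutoff when LP245/+ was compared with LP+/+ or with LPfl/+. In LPfl/+ compared with LP+/+ the number was 0 to 2 with 1 liver left out, the 2 being C6 and C8b without LP+/+ replicate 1, and 0 under the other alternatives. Counts at an unadjusted p below 0.05 moved more. Shares of all genes at this p were computed for the main fit alone, so whether these moves are particular to the 46 is not known. For LP245/+ compared with LP+/+ the count was 0, and it became 1 with DESeq2, with scaling by library totals, with no filter and with only the 2 genotypes in the fit, 3 with a covariate for the series of library numbers, and 0 to 3 with 1 liver left out. For LPfl/+ compared with LP+/+ the count was 0, and it became 1 with DESeq2, 2 with library totals, 3 with no filter, 1 with only the 2 genotypes, 2 with the series as a covariate, and 0 to 4 with 1 liver left out. For LP245/+ compared with LPfl/+ the count was 6, and it became 7 with DESeq2, 9 with library totals, 8 with no filter and 8 with only the 2 genotypes, but 2 with the series as a covariate (C6 and Cfd), 3 with the replicate number as a block (the C1q genes), and 0 to 9 with 1 liver left out. Same-numbered livers deviated from their genotype means with correlations of -0.08 to 0.03, which gave no sign of pairing by replicate number. This check cannot exclude pairing, because genotypes have few livers and the 2 LPfl/+ livers deviate as mirror images. The block left 0 of the 46 past the cutoff in each comparison. The log2 fold change of C6 in LP245/+ compared with LP+/+ was -0.14, and it was 0.09 with the block, 0.84 with the series, and from -0.46 to 0.84 with 1 liver left out, the highest without LP+/+ replicate 1. In LPfl/+ compared with LP+/+, the values with the series as a covariate were -0.56 for C6 and -0.11 for C8b, in place of 0.43 and 0.55. The cause of these moves was not tested. C1qa, C1qb, C1qc, Cfp and C9 stayed lower and F5 higher in LP245/+ than in LPfl/+ under every alternative. All 6 were picked by their p in the main fit and failed its adjustment over all genes. The alternatives reuse the same livers, so a kept sign is not independent support. Sizes did move, and C9 went from -0.41 to -0.02 with the series as a covariate.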

Other observations

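C3 and fibrinogen belong to the acute phase proteins, which the liver releases in inflammation, and a separate list of 16 acute phase genes was examined. In LP245/+ compared with LP+/+, 5 of the 16 had an unadjusted p below 0.05 (5.93% of all genes), all lower, with a median of -0.36 over the list. They were Saa3 at a log2 fold change of -1.23, Orm2 at -1.22, Lcn2 at -0.93, Saa1 at -0.70 and Orm1 at -0.41, and none passed the adjustment over all genes. In LP245/+ compared with LPfl/+, 6 of the 16 had one (8.51% of all genes), 5 lower and 1 higher, the largest being -1.68 for Saa3 and -1.43 for Saa1 (edgeR adjusted p = 0.362 for each). These 2 genotypes share no series of library numbers. In LPfl/+ compared with LP+/+, 1 of the 16 had one (6.89% of all genes), Saa1, higher in LPfl/+ at 0.73 (edgeR adjusted p = 0.704). Saa3, a serum amyloid A gene, had 75.4, 147 and 85.6 normalized counts in LP+/+ livers, 169 and 109 in LPfl/+ livers, and 42.4, 48.5 and 38.7 in LP245/+ livers, so the 3 LP245/+ livers were below the other 5. Summed over the list, counts were lowest in LP245/+ replicate 1, at 196496, and between 239128 and 327520 in the other livers.

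C4a, which encodes the sex-limited protein of mice and was chosen after its values were seen, had 1328, 362 and 353 normalized counts in LP+/+ livers, 405 and 887 in LPfl/+ livers, and 707, 720 and 452 in LP245/+ livers. LP+/+ replicate 1 was the highest of the 8 livers for C4a, as it was for C6 and C8b and for 14% of all genes. Unlike for C6 and C8b, LPfl/+ replicate 1, of the same series of library numbers, lay below every LP245/+ liver for C4a. C4a and C4b are near-identical copies, so counts of either are uncertain.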
